A study of Mus musculus with 24 samples.

Results

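The genes described here are 55 mouse genes of central carbon metabolism, the enzymes that carry glucose to pyruvate and lactate, through the pentose phosphate pathway, and through the citric acid cycle. They were taken by name from 21755 protein-coding genes, by a rule that uses no measured value. A gene counted as marked when a peak of H3K4me3 came within 250 bp of any of its annotated transcription start sites (TSSs). By this rule 45 of the 55 genes (81.8%) were marked and 10 were not, whereas 49.4% of all protein-coding genes (10747 of 21755) were marked. H3K4me3 was measured by ChIP-seq in 3 replicates of C127 cells, a mouse mammary epithelial line, grown in medium with serum and crosslinked with formaldehyde. The replicates of this single cell line were reduced by the authors to 1 list of 13451 consensus peaks, of which 13447 lie on the chromosomes used. The other 21 samples of the series (CFP1, wild-type and mutant GFP-CFP1, a GFP control, KDM2B, RNA polymerase II and inputs) were not analysed here. The list holds only positions, so a peak has a place and a width but no height, the depth is unknown, the spread between replicates cannot be given, and no test was made.

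H3K4me3 is trimethylation of lysine 4 of histone H3. In mammals it is deposited by the SET1 and MLL complexes around the TSSs of active genes, most of which lie in CpG islands, stretches rich in non-methylated CpG dinucleotides. Many steps of glycolysis can be carried out by more than 1 enzyme form (isozyme), each from its own gene. Some of these genes are used in most cells, and others mainly in muscle, neurons, liver or male germ cells, so the question for each enzyme was which of its genes carried the mark in C127 cells.

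Promoters are shown as examples of different forms of the same enzyme, for enzymes with a germ cell form. They were chosen with earlier results of these data known. Of lactate dehydrogenase, Ldha and Ldhb were grouped as general forms and Ldhc as a germ cell form. The sequences are RefSeq promoter windows of GRCm38.p6, each running from 250 bases before to 50 bases after a TSS and read 5′ to 3′ on the strand of the gene, with every CpG dinucleotide in capitals. The window of Ldha at chr7:46845554-46845853 (plus strand) lay in a peak and holds 30 CpGs. The window of Ldhb at chr6:142507908-142508207 (minus strand) lay in no peak and holds 17 CpGs. The window of Ldhc at chr7:46861013-46861312 (plus strand) lay in no peak and holds 9 CpGs.
Ldha: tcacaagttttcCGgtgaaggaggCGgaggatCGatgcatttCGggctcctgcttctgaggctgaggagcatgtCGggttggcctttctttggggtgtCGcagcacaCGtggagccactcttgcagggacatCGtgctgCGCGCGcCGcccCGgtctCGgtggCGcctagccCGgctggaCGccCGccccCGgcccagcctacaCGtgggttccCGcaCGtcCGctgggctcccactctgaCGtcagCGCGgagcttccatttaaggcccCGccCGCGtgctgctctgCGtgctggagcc
Ldhb: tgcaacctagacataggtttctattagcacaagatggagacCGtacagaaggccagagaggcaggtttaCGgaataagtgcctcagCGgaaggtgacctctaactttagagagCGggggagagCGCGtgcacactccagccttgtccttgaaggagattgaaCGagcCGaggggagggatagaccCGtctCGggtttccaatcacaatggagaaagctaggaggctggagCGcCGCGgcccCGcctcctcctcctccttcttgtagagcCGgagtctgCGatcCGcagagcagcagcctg
Ldhc: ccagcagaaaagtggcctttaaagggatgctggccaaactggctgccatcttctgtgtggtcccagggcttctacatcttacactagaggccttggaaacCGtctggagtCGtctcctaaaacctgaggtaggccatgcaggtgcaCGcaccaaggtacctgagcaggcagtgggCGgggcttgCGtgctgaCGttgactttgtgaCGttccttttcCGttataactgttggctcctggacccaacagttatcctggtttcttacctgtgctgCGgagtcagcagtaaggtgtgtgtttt

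For phosphoglycerate kinase and glyceraldehyde-3-phosphate dehydrogenase, the general and the germ cell form are shown. The window of Pgk1 at chrX:106186850-106187149 (plus strand) lay in a peak and holds 24 CpGs, whereas that of the germ cell form Pgk2 at chr17:40208560-40208859 (minus strand) lay in no peak and holds 4. The window of Gapdh at chr6:125165724-125166023 (minus strand) lay in a peak and holds 12 CpGs, whereas that of the germ cell form Gapdhs at chr7:30743632-30743931 (minus strand) lay in no peak and holds 4.
Pgk1: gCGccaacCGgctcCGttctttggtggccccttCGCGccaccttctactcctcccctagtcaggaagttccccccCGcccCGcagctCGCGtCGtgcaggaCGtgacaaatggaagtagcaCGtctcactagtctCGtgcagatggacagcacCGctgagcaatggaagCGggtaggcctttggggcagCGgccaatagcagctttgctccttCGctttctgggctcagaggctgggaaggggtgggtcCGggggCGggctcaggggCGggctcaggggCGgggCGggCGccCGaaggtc
Pgk2: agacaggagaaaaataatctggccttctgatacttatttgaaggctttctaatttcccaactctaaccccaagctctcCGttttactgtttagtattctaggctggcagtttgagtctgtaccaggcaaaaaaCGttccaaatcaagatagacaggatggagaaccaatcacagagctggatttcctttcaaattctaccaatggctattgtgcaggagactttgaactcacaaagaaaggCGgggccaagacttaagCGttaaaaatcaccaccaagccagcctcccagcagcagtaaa
Gapdh: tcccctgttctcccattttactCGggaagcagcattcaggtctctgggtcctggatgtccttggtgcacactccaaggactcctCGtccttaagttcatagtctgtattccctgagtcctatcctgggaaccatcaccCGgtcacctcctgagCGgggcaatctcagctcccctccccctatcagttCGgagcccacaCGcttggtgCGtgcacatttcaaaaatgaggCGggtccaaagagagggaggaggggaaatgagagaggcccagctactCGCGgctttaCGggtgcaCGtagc
Gapdhs: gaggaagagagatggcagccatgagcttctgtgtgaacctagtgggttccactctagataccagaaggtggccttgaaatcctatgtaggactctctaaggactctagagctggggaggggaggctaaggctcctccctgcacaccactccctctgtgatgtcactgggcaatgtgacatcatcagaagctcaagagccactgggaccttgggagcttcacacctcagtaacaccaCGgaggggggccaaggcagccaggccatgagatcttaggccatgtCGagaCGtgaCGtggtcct

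All 10 genes without a peak belonged to glycolysis and to the PFKFB enzymes that regulate it. In glycolysis, 15 of 24 genes were marked, and of the PFKFB enzymes 3 of 4. All 7 genes of the pentose phosphate pathway, all 7 of the pyruvate dehydrogenase complex and its kinases, and all 13 of the citric acid cycle and its linked enzymes were marked. Each of these has a CpG island promoter, and 70.9% of all protein-coding genes with such a promoter were marked. All 10 forms grouped below as tissue-restricted were glycolytic or PFKFB genes, so the other pathways had no form so grouped in the list. Of relatives of those pathways outside the list, 2 of 4, 5 of 6 and 10 of 11 were marked, in the same order. In each of the 45 marked genes the peak covered a TSS, so none owed its call to the 250 bp allowance. Hk3, Pfkfb1, Aldoc, Gapdhs, Pgk2, Pgam2, Eno2, Pklr, Ldhb and Ldhc were the unmarked genes. Nearest to the limit on the outside was Pfkfb1, whose nearest peak ended 865 bp from a TSS, followed by Aldoc at 3174 bp. On the inside, the principal TSS of Pfkfb2 lay 82 bp outside the edge of its peak, but another TSS of the gene lay within the peak.

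The peaks of marked genes had a median width of 3901 bp (25th to 75th percentile 2831 to 5194 bp, n = 45), and those of all marked protein-coding genes 3254 bp (2410.5 to 4258 bp, n = 10747). Where a gene had several peaks at its TSSs the widest was taken. Of the 45 genes, 28 were above the median of all marked genes, 21 were above the 75th percentile and 7 below the 25th. By pathway, the median was 5194 bp for 15 marked genes of glycolysis and 4840 bp for 7 genes of the pentose phosphate pathway. For 13 genes of the citric acid cycle and its linked enzymes it was 4070 bp. It was 2831 bp for 7 genes of the pyruvate dehydrogenase group and 2576 bp for 3 PFKFB genes. The 13 genes include cytosolic Aco1 (4780 bp), Idh1 (4344 bp) and Mdh1 (5045 bp), and the linked enzyme Pcx (2246 bp). Of these 13, 7 were above the median of all marked genes, 6 above the 75th percentile and 3 below the 25th. The ranges overlapped, from 3102 to 15258 bp in glycolysis, from 2684 to 6544 bp in the pentose phosphate pathway, from 2230 to 5257 bp in the citric acid cycle, from 1658 to 5047 bp in the PFKFB enzymes and from 521 to 3486 bp in the pyruvate dehydrogenase group. The peak of 15258 bp, at Eno3, also holds TSSs of other coding genes.

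**Figure D1:**
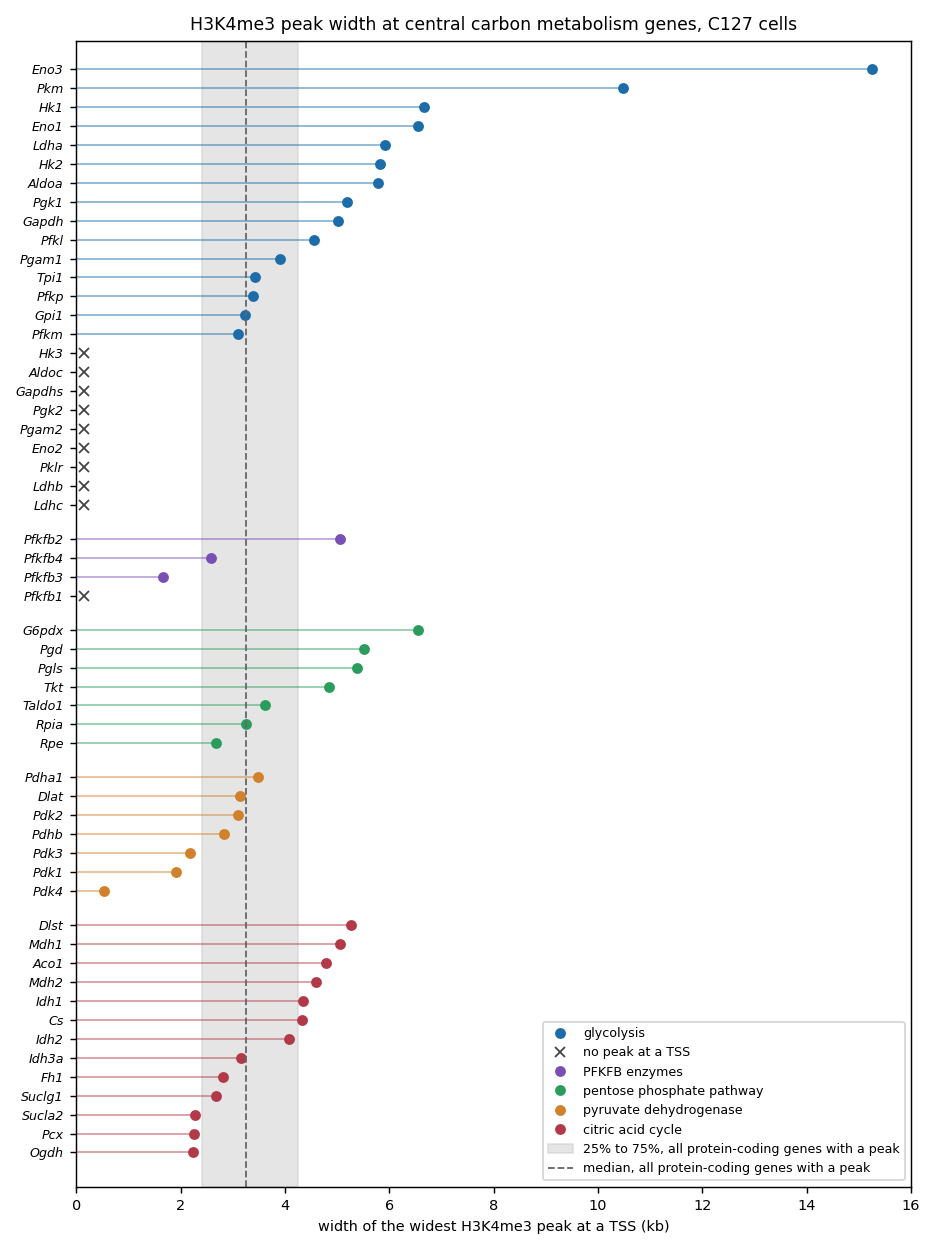
Width of the widest H3K4me3 peak at a TSS of each of the 55 genes (points, kb), grouped by pathway and sorted by width, with crosses for the 10 genes without a peak. The grey band spans the 25th to the 75th percentile (2410.5 to 4258 bp) and the dashed line the median (3254 bp) of all 10747 marked protein-coding genes. Glycolytic peaks reach furthest to the right, and the furthest, at Eno3 (15258 bp), also holds TSSs of Pfn1, Rnf167 and Slc25a11.

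Glycolysis starts with hexokinase, which phosphorylates glucose and so traps it in the cell. Hk1, the form of most tissues, had a peak on chromosome 10 (62336162 to 62342831) that at 6670 bp exceeded the width in 94.8% of marked protein-coding genes. Hk2, the insulin-responsive form of muscle and fat that many tumours use, had a peak of 5816 bp on chromosome 6. Hk3, the form of blood cells, had none, and its nearest peak lay 77249 bp away at Uimc1. Hk1 has 4 TSSs, of which 2 lay in the peak and the others lay 15531 and 37077 bp from the nearest peak, so the mark separated the downstream from the upstream promoters of this gene.

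Gpi1, which converts glucose-6-phosphate to fructose-6-phosphate, had a peak of 3240 bp. The genes of phosphofructokinase, the main control point of the pathway, were all marked. The liver form Pfkl had a peak of 4559 bp, the platelet form Pfkp one of 3377 bp, and the muscle form Pfkm 2 peaks of 3102 and 3055 bp at separate promoters, so the name of the form did not separate them. The 3102-bp peak of Pfkm also held TSSs of Senp1, 662 and 1155 bp into the Pfkm gene on the other strand. The 3055-bp peak on chromosome 15 (98107824 to 98110878) held the downstream Pfkm promoter and no TSS of another coding gene.

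The 4 PFKFB enzymes make and break fructose-2,6-bisphosphate, the activator of phosphofructokinase. Pfkfb2, the heart form, had a peak of 5047 bp that also held TSSs of 2 other coding genes. Measured from the Pfkfb2 TSS at 130715778, that of Gm29427 lay 21 bp upstream on the same strand and that of Yod1 1549 bp upstream. Pfkfb3, the inducible form of growing cells, had peaks of 1658 and 1302 bp at separate promoters, and the wider one exceeded that of only 8.67% of marked genes. Pfkfb4, known from testis and inducible by hypoxia, had a peak of 2576 bp. Pfkfb1, the liver and muscle form, had none at its 2 basic TSSs, but a peak of 2348 bp on chromosome X (150586709 to 150589056) ended 865 bp upstream. This peak holds TSSs of Apex2, a DNA repair gene on the other strand, and 2 Pfkfb1 transcripts outside the basic set started inside it, at 150588229 and 150588256. The absence of a peak at Pfkfb1 therefore depended on which transcripts were counted.

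Aldolase splits the sugar. Aldoa, the general and muscle form, had a peak of 5778 bp on chromosome 7 that covered 95.4% of the gene and held a TSS of Fam57b. Aldoc, the brain form, had none at its 2 TSSs, although a peak of 2618 bp at Pigs overlapped its far end, 3174 bp from the nearer TSS. Tpi1, which interconverts the resulting triose phosphates, had a peak of 3431 bp that covered 80% of the gene.

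The payoff steps repeated the contrast between general and restricted forms. Gapdh, which oxidises glyceraldehyde-3-phosphate, carried a peak of 5016 bp on chromosome 6 (125162618 to 125167633), and the sperm form Gapdhs none. Pgk1, which makes the first ATP of the pathway, carried a peak of 5194 bp on chromosome X (106185863 to 106191056). Pgk2, its intronless testis counterpart on chromosome 17, lay 667943 bp from the nearest peak, further than any other of the 55 genes. Pgam1, the general phosphoglycerate mutase, had a peak of 3901 bp, and the muscle form Pgam2 lay 13261 bp from one.

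Enolase makes phosphoenolpyruvate. Eno1, the general form, carried a peak of 6539 bp on chromosome 4 (150236128 to 150242666), and its second TSS lay 820 bp beyond the end of that peak. Eno2, the neuronal form, had none at its 3 TSSs. Eno3, the muscle form, lay in a peak of 15258 bp on chromosome 11 (70644646 to 70659903), but this peak reached 12556 bp upstream of the Eno3 TSS and held the TSSs of Pfn1 (2604 and 2558 bp upstream), Rnf167 (9915 bp upstream) and Slc25a11 (10144 bp upstream). All of these neighbours have CpG islands at their TSSs, with 31 to 50 CpGs within 250 bp, whereas the Eno3 TSS has 3 CpGs and no island. A mark set at Eno3 itself and one that spread from its neighbours cannot be told apart in this list.

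Pyruvate kinase ends the pathway. Pkm, the muscle and proliferating-cell form, had a peak on chromosome 9 (59653033 to 59663501) that was 10469 bp wide, more than in 99% of marked genes, and held no other coding TSS. It reached 3335 bp upstream and 7133 bp into the gene. Pklr, the form of liver and red blood cells, lay 27139 bp from the nearest peak, at Clk2. Lactate dehydrogenase turns pyruvate into lactate and back. Ldha, the form that favours lactate production, carried a peak of 5919 bp on chromosome 7 (46843355 to 46849273) that held all 5 of its TSSs. Ldhb, the heart form that favours lactate use, had none, and its nearest peak lay 117980 bp away. Ldhc, the testis form, lay 15.4 kb downstream of Ldha and 11930 bp beyond the end of the Ldha peak, so neighbouring genes of 1 family differed in the mark.

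For 23 forms that were grouped as general or tissue-restricted, 12 of 13 general forms were marked and 1 of 10 tissue-restricted forms. Over all protein-coding genes, 70.9% of those with a CpG island promoter were marked and 5.49% of those without. All 13 general forms have an island. Of the tissue-restricted forms, Hk3, Pfkfb1, Gapdhs, Pgk2, Eno3 and Pklr have none, and Aldoc, Pgam2 and Ldhc have short ones (227, 375 and 230 bp). The remaining one, Eno2, has an island of 988 bp and was unmarked. The part of CpG content in this contrast was not tested. The 7 genes of phosphofructokinase (Pfkl, Pfkm, Pfkp) and the pyruvate dehydrogenase kinases (Pdk1 to Pdk4) were put in neither group, although some are named after a tissue, and all 7 were marked. The counts depend on this grouping, which places forms with a known tissue preference such as Hk2, Pfkfb2 and Pfkfb4 among the general ones. The general forms were Hk1, Hk2, Pfkfb2, Pfkfb3, Pfkfb4, Aldoa, Gapdh, Pgk1, Pgam1, Eno1, Pkm, Ldha and Ldhb, and Ldhb was the exception. In the tissue-restricted group, the germ cell forms (Gapdhs, Pgk2, Ldhc), the nervous system forms (Aldoc, Eno2), the forms of liver or blood cells placed there (Pklr, Pfkfb1, Hk3) and Pgam2 were unmarked, and Eno3 lay in the shared peak. The muscle-named Pfkm, the liver-named Pfkl and the platelet-named Pfkp, outside this group, were marked. The marked general forms had a median width of 5486 bp (n = 12, range 1658 to 10469 bp). Each of the 11 enzymes grouped here as families, 30 genes in all, had at least 1 marked gene. All 25 genes outside these families were marked. Among these, Idh1 and Idh2, and the malate dehydrogenases Mdh1 and Mdh2, were counted as separate steps.

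**Figure D2:**
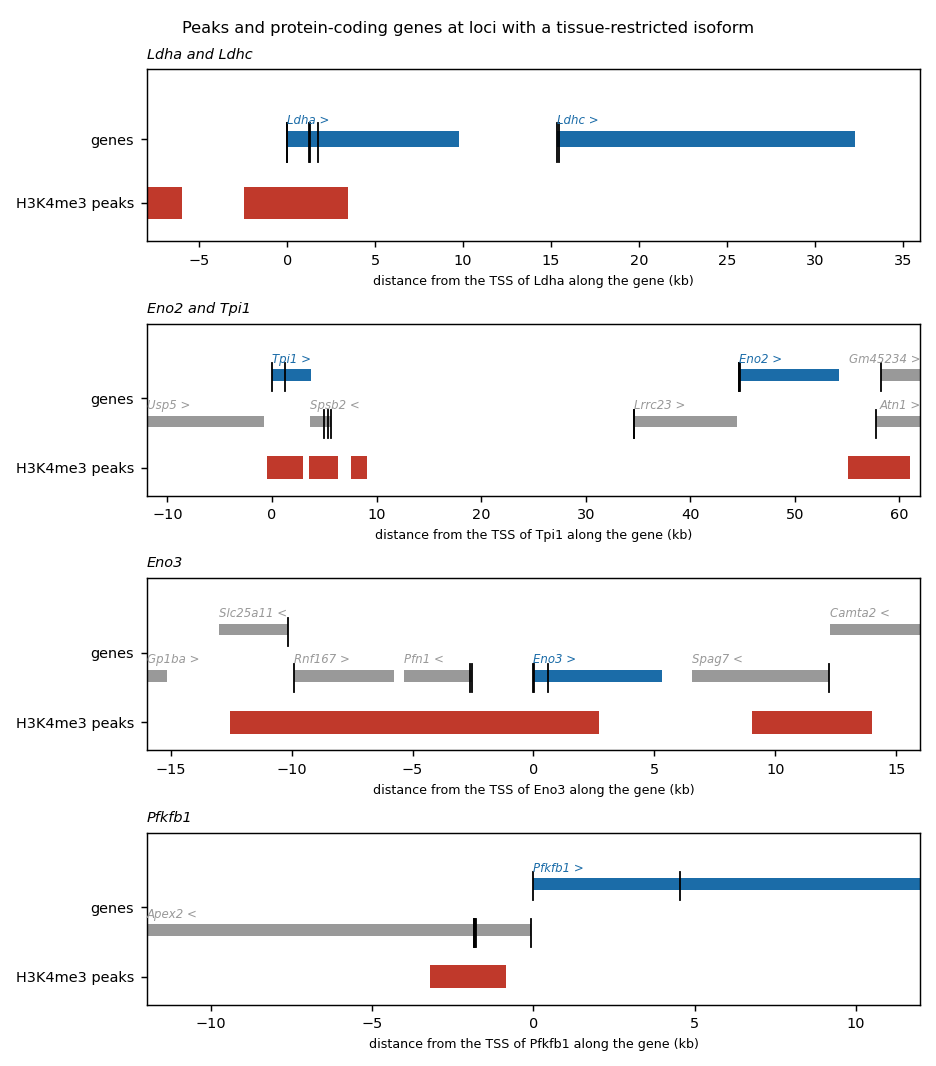
H3K4me3 peaks (red) and protein-coding genes (listed genes in blue, others in grey, black ticks for TSSs, > or < for the direction relative to the gene at 0) at 4 loci with a tissue-restricted form, as distance in kb. The peak at Ldha ends 11930 bp before Ldhc, Eno2 lies 44.6 kb from the marked Tpi1, the 15258-bp peak at Eno3 spans Pfn1, Rnf167 and Slc25a11, and the peak next to Pfkfb1 ends 865 bp before its first basic TSS.

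The pentose phosphate pathway makes NADPH and the ribose of nucleotides. Its oxidative genes had the wider peaks. G6pdx, the first and rate-limiting enzyme, carried a peak of 6544 bp on chromosome X (74424102 to 74430645), Pgls, the lactonase, 5374 bp, and Pgd, which yields ribulose-5-phosphate, 5522 bp. The G6pdx peak also held TSSs of Ikbkg, a subunit of the NF-kappaB kinase, the closest of them 121 bp upstream on the other strand. Of the non-oxidative enzymes, the transketolase Tkt had 4840 bp, the transaldolase Taldo1 3617 bp, the isomerase Rpia 3258 bp and the epimerase Rpe 2684 bp, all narrower than the oxidative genes.

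The pyruvate dehydrogenase complex turns pyruvate into acetyl-CoA in mitochondria, and its kinases switch it off. The subunit genes Pdha1, Pdhb and Dlat had peaks of 3486, 2831 and 3146 bp. The kinase genes had 1911 bp (Pdk1, a hypoxia target), 3105 bp (Pdk2, the most widespread form), 2187 bp (Pdk3) and 521 bp (Pdk4, induced by fasting). The Pdk4 peak on chromosome 6 (5495903 to 5496423) was the narrowest of the 55 genes and narrower than that of all but 0.372% of marked protein-coding genes. No gene of this group was above the 75th percentile of all marked genes, and 3 of 7 were below the 25th.

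The citric acid cycle oxidises acetyl-CoA in mitochondria. Cs, the citrate synthase that starts it, had a peak of 4327 bp. Among enzymes of citrate and isocitrate, the cytosolic aconitase Aco1 had 4780 bp, the cytosolic NADP-dependent Idh1 4344 bp with another peak of 3825 bp at an upstream TSS, the mitochondrial NADP-dependent Idh2 4070 bp and the NAD-dependent subunit Idh3a 3150 bp. For the oxoglutarate dehydrogenase complex, Ogdh had 2230 bp and Dlst 5257 bp, the narrowest and the widest of this pathway, so subunits of 1 complex did not share a width. The succinyl-CoA ligase subunits Sucla2 and Suclg1 had 2280 and 2668 bp, and the fumarase Fh1 2808 bp. The malate dehydrogenases had 5045 bp (cytosolic Mdh1) and 4589 bp (mitochondrial Mdh2), both in peaks shared with a divergent gene, Wdpcp 42 bp and Styxl1 95 bp upstream. Pcx, the pyruvate carboxylase that refills the cycle, had 2246 bp, and its most downstream TSS lay 17891 bp from a peak.

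Some peaks spanned the promoters of several genes, and 7 of the 45 peaks (15.6%) held a TSS of another coding gene, against 23.6% over all marked genes. These were the peaks of Pfkm, Pfkfb2, Aldoa, Eno3, G6pdx, Mdh1 and Mdh2. Over the 38 other genes the median width was 3458.5 bp, and over all marked coding genes with no other coding TSS in the peak it was 3033 bp. The median was thus lower without shared peaks in both sets, and the part of sharing in the differences between pathways was not tested. Of the marked genes, 3 (Pfkm, Pfkfb3 and Idh1; 6.67%) had 2 peaks at separate TSSs, against 2.64% of all marked genes with more than 1. In 41 of the 45 marked genes every TSS lay within 250 bp of a peak, and the 5 TSSs further away belonged to Hk1, Pfkfb2, Eno1 and Pcx.

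The peaks extended mainly into the gene. In 35 marked genes with no other coding TSS in the peak and no TSS of the opposite strand within 2000 bp, the peak reached a median of 904 bp upstream (range 114 to 3335 bp) and 2726 bp downstream (range 406 to 7133 bp) of the TSS. It reached further downstream than upstream in 35 of 35, and in 93.2% of 6942 coding genes chosen in the same way, which had medians of 762 and 2146 bp. The share was thus near that of all genes. Among these 35 genes, the longest stretches within the gene were 7133 bp in Pkm, 5714 bp in Eno1 and 4670 bp in Hk2, and Pkm also had the longest stretch upstream (3335 bp), followed by Ldha (2484 bp). The peak covered a median of 12.8% of the gene (range 1.17 to 95.4%) and over 50% in 6 genes. These were the compact genes Aldoa (95.4%), Gapdh (83.4%), Tpi1 (80%), Pgls (79.2%), Pgam1 (50.9%) and Eno3 (50.9%).

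**Figure D3:**
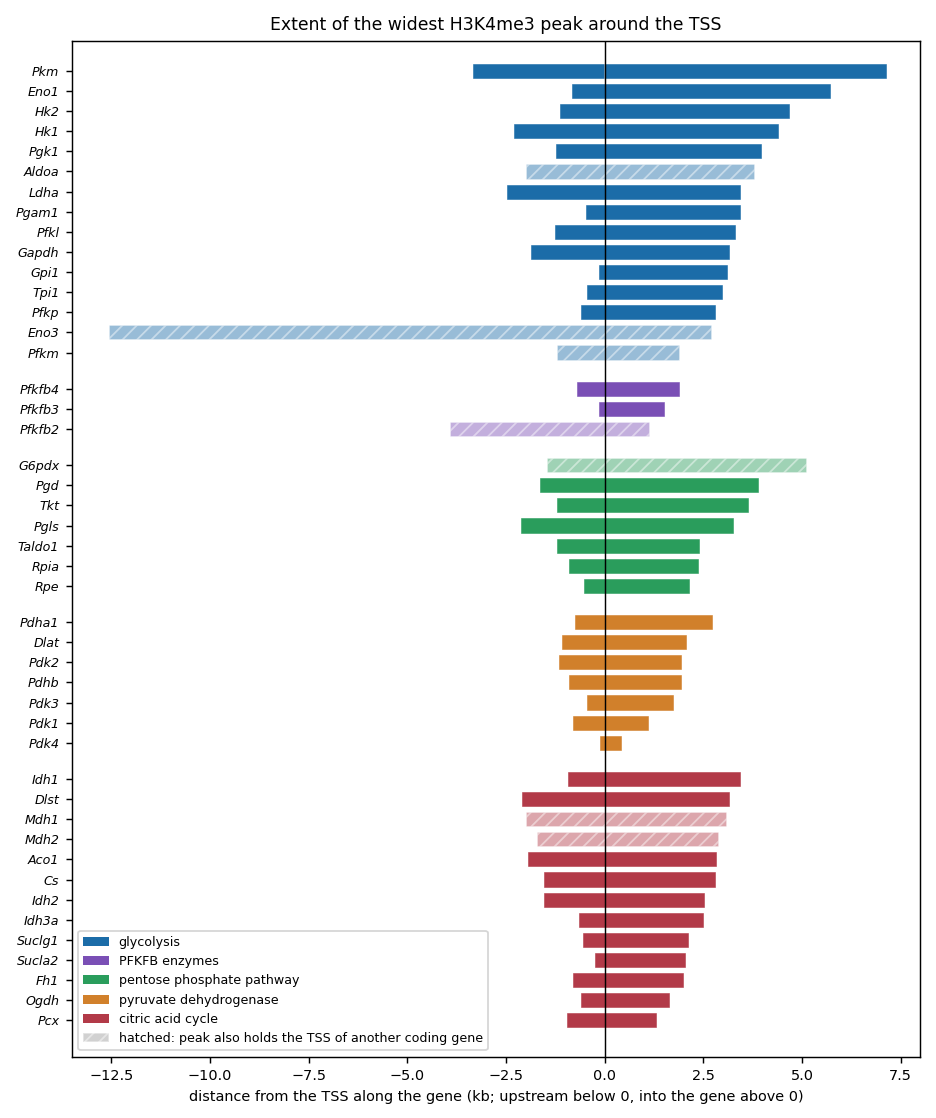
Extent of the widest H3K4me3 peak around the TSS of each of the 45 marked genes, in kb upstream (below 0) and into the gene (above 0), coloured by pathway, with hatched bars for the 7 peaks that also hold a TSS of another coding gene. In 35 of 35 genes without a shared peak or an opposite TSS the bar is longer on the side of the gene, and the Eno3 bar lies mostly upstream (12556 bp).

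The CpG content of the promoter separated most of the marked from the unmarked genes. A CpG island, here 200 bp or longer with C and G making up 0.5 of the bases or more and with CpGs at 0.6 or more of the number that base composition predicts, lay within 250 bp of a TSS of 49 of 55 genes (89.1%), against 67.1% of all protein-coding genes. Of the 49, 44 were marked (89.8%), against 70.9% of all island genes, and of the 6 others only Eno3 (16.7%), against 5.49% of all genes without an island. The marked genes had a median of 39 CpGs within 250 bp of the principal TSS (range 3 to 61) and the unmarked 9.5 (range 5 to 38), close to the 40 and 8 of all marked and unmarked coding genes. Of the 5 unmarked genes with an island, Aldoc, Pgam2 and Ldhc had short ones (227, 375 and 230 bp) with 10 to 12 CpGs. The other two were Ldhb (465 bp, 22 CpGs) and Eno2 (988 bp, 38 CpGs). Genes with 20 to 24 CpGs were marked in 55.3% of cases over the genome and those with 35 to 39 in 77.8%, so Eno2 was the listed gene whose lack of a peak went most against its CpG content. With stricter islands of at least 500 bp, 42 of 43 listed island genes were marked, against 78% of all, and Eno2 was the exception.

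**Figure D4:**
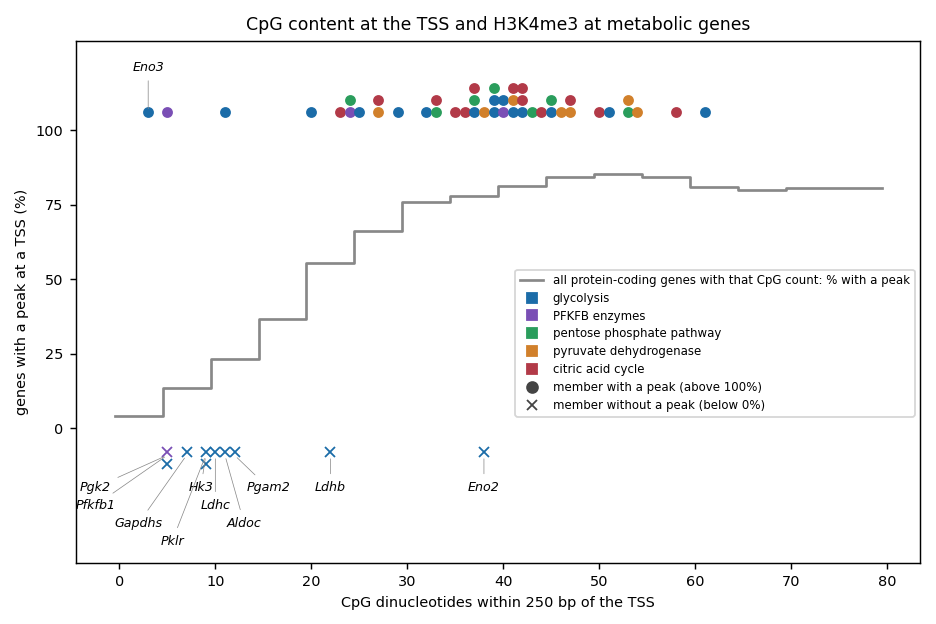
CpG dinucleotides within 250 bp of the principal TSS of the 55 genes (points above 100% for marked genes, crosses below 0% for unmarked genes, coloured by pathway) and the share of all protein-coding genes with that CpG count that have a peak (grey line, %). Of the unmarked genes only Ldhb (22 CpGs) and Eno2 (38 CpGs) lie to the right of 12 CpGs. Of the marked genes, Eno3 (3 CpGs), Pfkfb2 (5 CpGs) and Pfkm (11 CpGs) lie to the left of 12 CpGs.

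Width was also set against CpG content. Across the 45 marked genes, width and the length of the longest island had a Spearman rho of 0.256 (Pearson r 0.0348), and across 10747 marked coding genes a rho of 0.404. Width and the number of CpGs within 250 bp of the TSS had a rho of −0.153 (Pearson r −0.326) across the 45 genes, and a rho of 0.217 (Pearson r 0.143), of the opposite sign, across all marked coding genes. Among the 45, Eno3 has both the fewest CpGs (3) and the widest peak (15258 bp), which is shared with other genes. The part of Eno3 in the values across the 45 genes was not tested. These values describe genes of 1 peak list, which are not independent replicates.

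Short motifs known from metabolic gene promoters were counted on either strand in the RefSeq windows, 1 window per gene, for 54 of the 55 genes (Idh3a had no window) and for 16433 coding genes. The core of the hypoxia response element, ACGTG, was present in 20 windows (37%), against 21.1% of all windows. The E-box bound by MYC and related factors, CACGTG, overlaps the hypoxia core and was present in 4 windows (7.41%; Ldha, Pcx, Pdk2 and Pfkm), against 8.15% of all. Further windows of Ogdh, Pfkfb2 and Pfkfb3, which were not counted, also hold it. The Ldha window shown above holds 2 copies of this E-box. The GC box, GGGCGG, was present in 36 windows (66.7%), against 48.7% of all. The letters CCAAT were present in 25 windows (46.3%), against 38.7% of all. The TATA motif, written as TATAAA, was present in 3 windows (5.56%), those of the unmarked Eno2, Pfkfb1 and Pklr, against 12.9% of all. Over all coding genes it was likewise rarer in windows that lay in a peak (5.83%) than in those that lay in none (19.9%). A core of the NRF1 site, GCATGCGC, was present in 2 windows (3.7%; Pfkfb4 and Pgam1), against 3.8% of all, and also in further windows of Ogdh that were not counted. Among windows that lay in a peak, the hypoxia core was present in 38.6% of 44 listed genes and 27.4% of 8210 coding genes, and the GC box in 77.3% of the listed genes and 71% of the coding genes. A match is a run of letters and was not tested for binding.

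Of 48 other genes of the same pathways, 33 were marked (68.8%), with a median width of 3306 bp. Over all protein-coding genes the share was 49.4%, over those with a CpG island promoter 70.9%, and the median width 3254 bp, so both values for these genes were near those of island genes or of all marked genes. Among carriers, the general glucose transporter Slc2a1 (4576 bp) and the lactate transporter Slc16a1 (5131 bp) were marked, whereas Slc2a2 of liver and pancreas, Slc2a3 of neurons, Slc2a4 of muscle and fat and the lactate exporter Slc16a3 were not. Of 11 genes of hexose phosphorylation, glycogen entry and gluconeogenesis, 6 were marked. The liver-enriched enzymes G6pc, Fbp1 and Pck1 were unmarked, as were Fbp2 and Hkdc1, while the mitochondrial Pck2 (3031 bp), Pgm1 (3061 bp), Pgm2 (2930 bp), Adpgk (2505 bp), Bpgm (2146 bp) and Tigar (1697 bp) were marked.

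Of the relatives of the pentose phosphate enzymes, H6pd (1967 bp) and Shpk (3306 bp) were marked and Tktl1 and Tktl2 were not. For pyruvate entry, the carrier subunits Mpc1 (3120 bp) and Mpc2 (5526 bp), the complex subunit Pdhx (4054 bp) and the phosphatases Pdp1 (2601 bp) and Pdp2 (2021 bp) were marked, and only the testis form Pdha2 was not. Of 11 relatives of the citric acid cycle 10 were marked. The succinate dehydrogenase subunits Sdha, Sdhb, Sdhc and Sdhd had peaks of 2918, 2315, 3330 and 4056 bp, the malic enzymes Me1, Me2 and Me3 peaks of 3318, 3350 and 2996 bp, and Acly, which splits exported citrate, 4628 bp. Mdh1b (1911 bp) and Ogdhl (597 bp) were marked by narrow peaks, and Csl was unmarked.

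Of 10 regulators, 8 were marked (80%), against 49.4% of all protein-coding genes and 70.9% of those with a CpG island promoter. All of the regulators but Ppargc1a have such a promoter. Myc, which drives many glycolytic genes, had the widest peak among them (6326 bp). The hypoxia pathway was marked at Hif1a (4381 bp), its partner Arnt (4117 bp) and the oxygen sensors Egln1 (4475 bp) and Egln3 (2635 bp), but not at Epas1. The glucose-sensing factor Mlxip (4786 bp) was marked and its liver relative Mlxipl was not. Ppargc1a (3332 bp) and Esrra (3899 bp), regulators of mitochondrial genes, were both marked.

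The identity of the cells was checked against markers of the tissues named above. None of 3 muscle (Myod1, Ckm, Des), 3 neural (Rbfox3, Tubb3, Syp), 3 germ cell (Ddx4, Dazl, Sycp3), 2 liver (Alb, Apoa1) and 2 blood cell (Ptprc, Spi1) markers had a peak. Ckm, Alb, Apoa1 and Ptprc have no CpG island promoter, and the others have one. Over all protein-coding genes 49.4% were marked, 70.9% of those with such a promoter and 5.49% of those without, so a missing peak says little at a gene without an island. Of 9 mammary epithelial markers only Gata3 (15554 bp) and Esr1 (2320 bp) had one, and the epithelial markers Krt8, Krt18, Krt19, Epcam, Cdh1, Cldn7 and Elf5 did not, although C127 cells are labelled as mammary epithelial. Of 6 mesenchymal markers, Vim (7153 bp), Fn1 (7629 bp), Twist2 (7374 bp) and Snai1 (7302 bp) had wide peaks, and Col1a1 and Col3a1 none. All of the epithelial and mesenchymal markers but Col3a1 have a CpG island promoter.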

How the data were processed

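H3K4me3 ChIP-seq of C127 cells (3 replicates) was analysed from 1 deposited list of consensus peaks, whose values are positions in bp without a score. According to the study's methods, the authors aligned reads to mm10 with bowtie2, discarded reads without a unique position, removed PCR duplicates with SAMtools, called peaks with MACS for each replicate against a control, kept peaks present in all replicates and merged those within 250 bp. No versions are given in the submitters' processing notes, which list Bowtie2, SAMtools and MACS2 and the build mm10. Merging lengthens peaks where marked stretches adjoin, and a promoter with copies elsewhere loses reads. For that reason, 50-bp words were taken every 5 bp within 250 bp of each TSS of the 55 genes. In no gene did over 50% of these words recur elsewhere in the genome, and the highest share was 28.6% (Pgam1).

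Starts were converted to 1-based positions. TSSs came from GENCODE vM21 basic transcripts on 19 autosomes and X, and islands and CpG counts from the GRCm38.p6 sequence. The principal TSS was that of the first basic transcript tagged as principal, or else the first basic transcript. Every one of the 55 genes is described, and full positions are given for enzymes with several forms, unmarked genes, extreme widths and shared peaks. Shares and medians are set beside those of all protein-coding genes, as descriptions without a test. The genes, lists and comparisons were chosen with earlier results of these data known. One gene of the lists is not reported here. Assignment of peaks and islands was tested on simulated data. Python 3.11.15, numpy 2.4.6, pandas 2.3.3, scipy 1.17.1, numba 0.67.0 and matplotlib 3.10.9 were used.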

Additional observations from a re-analysis of the deposited data

How the results depend on the processing

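The number of marked genes was 45 in the main analysis and 44 to 46 under the alternatives (a TSS distance of 0 or 1000 bp, 1 TSS per gene, all GENCODE transcripts, peaks of at least 1000 bp, promoters without copies). Pfkfb1 was gained at 1000 bp and with all transcripts, which raised the tissue-restricted forms from 1 to 2 of 10 in both, and Pdk4 was lost with peaks of at least 1000 bp. The count of general forms was 12 of 13 under each of these alternatives. The median width ranged from 3458.5 bp (only peaks with no other coding TSS) to 3985.5 bp (peaks of at least 1000 bp), against 3901 bp. Stricter islands of at least 500 bp (GC fraction 0.55, ratio 0.65) left 43 of 49 genes with an island. No gene was left out for promoter copies.

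No paired analysis was possible because the replicates were merged into 1 list before deposition. Leaving out a replicate could not be done for the same reason. Without heights or depth, a weak peak and a strong one count alike, and a gene without a peak is only one at which no peak was called in all 3 replicates.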

Other observations

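Several of the 55 genes hold further peaks away from their own TSSs. Hk1 holds peaks of 1469 and 1578 bp on chromosome 10 at 62299716 to 62301184 and at 62320117 to 62321694, Pfkfb3 one of 638 bp on chromosome 2 at 11535264 to 11535901, and Cs one of 1549 bp on chromosome 10 at 128344476 to 128346024, and none of these 4 peaks lies within 250 bp of an annotated basic TSS of a protein-coding or lncRNA gene. The peak of 4920 bp inside Pcx lies at Lrfn4. The peaks of 2743 bp at Spsb2 and of 3487 bp at Tmem147 overlap the far ends of Tpi1 and Gapdhs. In these 3 cases the mark in a metabolic gene thus lay at the promoter of another gene.

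The annotation gives the symbol Aldoa to another gene on chromosome 7 as well, with a TSS at 126809108 and a peak of 2909 bp (126806842 to 126809750). It was not counted with Aldoa, whose TSS lies at 126799254.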
